A study of Bos taurus with 14 samples.

Results

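The miRNAs described here are bta-miR-126-3p, bta-miR-126-5p, bta-miR-143 and bta-miR-145, 4 of the 932 miRNA names listed over all libraries, 723 of which are bovine. They were chosen by name, as miRNAs known from the vessel wall, and their estimated counts were compared by sample type and diet. Small RNA was sequenced from the blood of ruminally cannulated, non-lactating Holstein cows, all of which first received a forage diet without concentrate (FD, 0% concentrate) and then a high-grain diet (HG, 65% concentrate), which the study used to induce subacute ruminal acidosis. Plasma was sequenced from 4 cows on each diet and leucocytes from 3 of these cows (cows 1, 3 and 4) on each diet, with HG samples taken in week 1 of grain feeding, which gave 14 libraries. Each cow changed from FD to HG in the same order, so diet and time cannot be told apart. Plasma was centrifuged a second time to remove cells, and leucocytes were taken as the buffy coat, without sorting. RNA of plasma and of leucocytes was isolated with different kits from different starting material, so the sample type and the isolation cannot be told apart.

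MicroRNAs are short RNAs cut from a hairpin precursor, and they guide silencing proteins to messenger RNAs with matching sites. The miR-126 hairpin is known as the leading endothelial miRNA and supports VEGF signalling and vessel integrity, and its 3p and 5p arms are both functional. miR-126 is also carried by platelets. miR-143 and miR-145 are made from 1 primary transcript in smooth muscle cells and fibroblasts, where they keep smooth muscle in its contractile state. All of them circulate in plasma in vesicles and protein complexes.

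In the UMD3.1 bovine genome used for the files, bta-miR-126-5p lies at chr11:104131417-104131437 and bta-miR-126-3p at chr11:104131455-104131475, both on the plus strand and 18 bases apart from the last base of one to the first base of the other. bta-miR-143 lies at chr7:62809359-62809380 and bta-miR-145 at chr7:62810748-62810770, also on the plus strand, with 1368 bases from the end of the first to the start of the second. RefSeq's bovine annotation, made on the later ARS-UCD2.0 assembly, places the miR-126 hairpin within EGFL7, a gene expressed in endothelial cells, and the miR-143 and miR-145 hairpins within the same long noncoding RNA, LOC132345768. The other arm of the miR-145 hairpin was listed only under its human name, hsa-miR-145-3p, at chr7:62810786-62810807. bta-miR-145 and hsa-miR-145-5p occupy the same bases and shared all their reads, so the estimated count of each was exactly the read count divided by 2.

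The reads assigned to miRNAs numbered 376589 to 4464702 per plasma library and 21764578 to 66070770 per leucocyte library. Levels are given as CPM, the estimated count of a name divided by the estimated counts of all miRNA names of that library and multiplied by 1000000. Against the sample labels, the 8 leucocyte miRNAs listed as markers (such as bta-miR-142-5p and bta-miR-150) were found in all libraries, and summed to 24813 to 37979 CPM in leucocytes and 19710 to 36767 CPM in plasma, which overlapped. The 6 erythrocyte miRNAs (led by bta-miR-451) summed to 242690 to 411385 CPM in the leucocyte libraries, above the leucocyte list, and to 57603 to 148421 CPM in plasma.

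All 4 miRNAs were much higher in plasma than in leucocytes on both diets. Their CPM did not overlap between the sample types on either diet, but the share of all names without overlap was not counted. In the edgeR test over both diets given below, 19.4% of all names tested were called higher in plasma and 27% lower. The miRNA of endothelial cells, bta-miR-126-3p, stood at 3949, 2842, 4476 and 6545 CPM in plasma of cows 1 to 4 on FD and at 2830, 4502, 5227 and 6698 CPM on HG. In leucocytes of cows 1, 3 and 4 it stood at 44.9, 65.1 and 208 CPM on FD and at 45.8, 58.3 and 104 CPM on HG. The lowest plasma library was 13.7-fold above the highest leucocyte library on FD and 27.1-fold above it on HG, and cow 4 had the highest value in every group.

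The other arm, bta-miR-126-5p, was lower than the 3p arm in all 14 libraries. In plasma it was measured at 571, 331, 349 and 531 CPM on FD and at 388, 682, 1028 and 459 CPM on HG, again in the order of cows 1 to 4. In leucocytes of cows 1, 3 and 4 it was at 9.44, 11.8 and 36.6 CPM on FD and at 7.86, 9.11 and 17.4 CPM on HG. Its plasma libraries thus began 9.05-fold above the highest leucocyte library on FD and 22.3-fold above it on HG.

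The smooth muscle miRNA bta-miR-143 was by far the most abundant of the 4. It was at 61340, 35275, 28233 and 30033 CPM in plasma of cows 1 to 4 on FD and at 25282, 54743, 67103 and 42100 CPM on HG, which was 3.87% ± 1.54 (SD, n = 4) of estimated counts on FD and 4.73% ± 1.79 (SD, n = 4) on HG. It ranked between place 2 and place 7 among the bovine names of each plasma library. In leucocytes of cows 1, 3 and 4 it stood at 620, 1425 and 2967 CPM on FD and at 583, 804 and 1682 CPM on HG, and ranked between place 41 and place 72. The lowest plasma library was 9.51-fold above the highest leucocyte library on FD and 15.03-fold above it on HG.

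Its cluster partner bta-miR-145 was found at a small fraction of that level. In plasma it was at 741, 558, 336 and 405 CPM on FD and at 283, 716, 918 and 555 CPM on HG, and cow 1 was therefore the highest on FD and the lowest on HG. In leucocytes of cows 1, 3 and 4 it was at 5.29, 12.8 and 39.6 CPM on FD and at 7.67, 8.42 and 19.6 CPM on HG. The lowest plasma library exceeded the highest leucocyte library 8.49-fold on FD and 14.4-fold on HG.

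**Figure D1:**
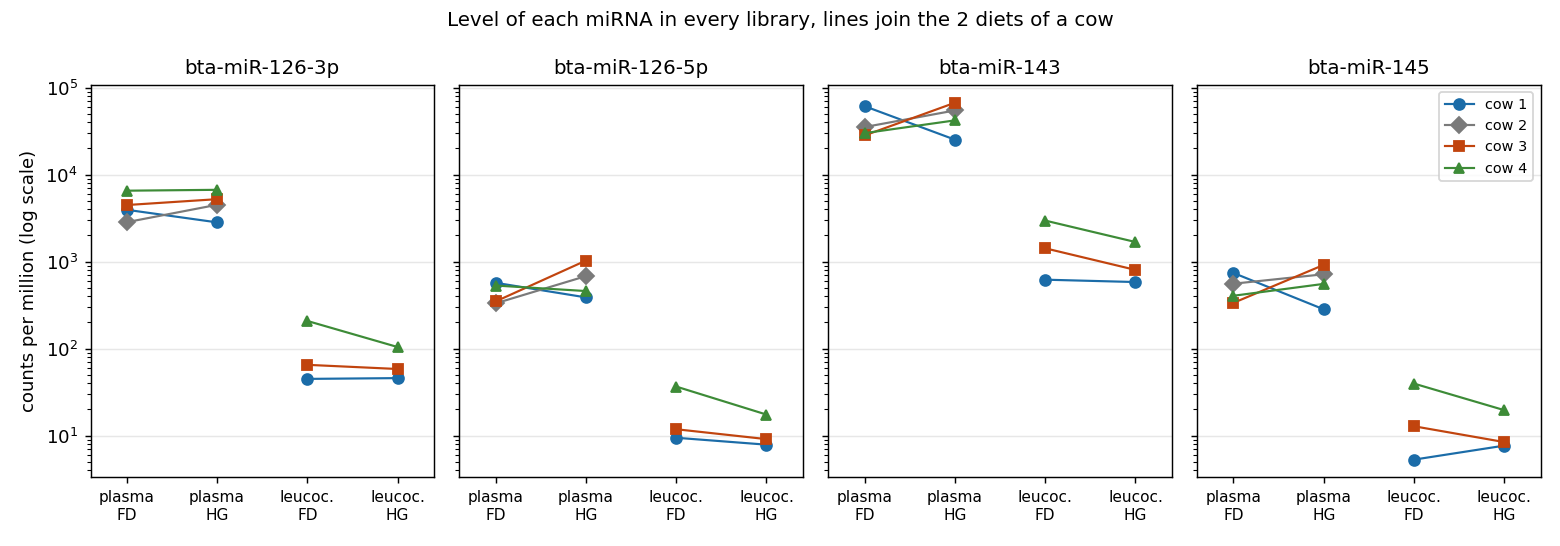
CPM (log axis) of the 4 miRNAs in every library, with 1 panel per miRNA, 1 symbol per cow and a line from FD to HG within a cow and sample type. For bta-miR-126-3p the plasma points lie between 2830 and 6698 and the leucocyte points between 44.9 and 208, and in all 4 panels the points of the diets overlap within each sample type.

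The order of levels was the same in both sample types. bta-miR-143 exceeded bta-miR-126-3p in 8 of 8 plasma and 6 of 6 leucocyte libraries, and bta-miR-126-3p exceeded both bta-miR-126-5p and bta-miR-145 in all of them. bta-miR-145 and bta-miR-126-5p could not be ordered by CPM, since bta-miR-145 was the higher in 4 of 8 plasma and 3 of 6 leucocyte libraries. By undivided reads, which do not split the reads shared with the human name, bta-miR-145 was the higher in 8 of 8 and 6 of 6. Levels of different miRNAs in sequencing also carry the preferences of adapter ligation, which were not measured. The reads of bta-miR-143 were spread over 140 to 275 distinct sequences per plasma library and those of bta-miR-126-5p over 8 to 21.

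The difference between sample types was tested with edgeR's quasi-likelihood test over all 14 libraries, averaged over the diets, with cow in the model and Benjamini-Hochberg adjustment over the 800 names tested. The 3p arm of miR-126 had the smallest p-value of all 800 names, with a log2 fold change of 5.03 (SE 0.246, adjusted p = 1.53e-07), which is a 32.8-fold higher level in plasma. bta-miR-126-5p was higher by 4.37 on the log2 scale (SE 0.382, adjusted p = 6.22e-06), bta-miR-143 by 4.18 (SE 0.323, adjusted p = 3.36e-06) and bta-miR-145 by 4.39 (SE 0.445, adjusted p = 1.75e-05). All 4 were called higher in plasma, where 19.4% of all names tested were called higher and 46.4% were called in either direction. The model has 1 term per cow for both sample types. It therefore counts a cow's FD and HG libraries of a sample type as independent beyond that term. In leucocytes the residuals of such libraries correlated at 0.48 to 0.74, and only 3 cows have both sample types. The SE and p-values do not allow for this.

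The fitted differences lay within about 1 SE of each other for bta-miR-126-5p, bta-miR-143 and bta-miR-145, and whether they differ was not tested. The median of all 4 was 4.38, beside a median of -1.51 over all 800 names. Of the 800 names, 16 had a larger log2 fold change than bta-miR-126-3p, 32 than bta-miR-126-5p, 42 than bta-miR-143 and 30 than bta-miR-145. Among the 151 names with at least 100 estimated counts in every library, whose median was -0.29, these numbers were 5, 15, 19 and 13. The other arm of miR-145, hsa-miR-145-3p, was higher in plasma by 4.96 (SE 0.394, adjusted p = 3.36e-06). With library size alone as the scale, the log2 differences of the 4 miRNAs were larger, between 5.22 and 5.99, and the median of all names was -0.63.

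**Figure D2:**
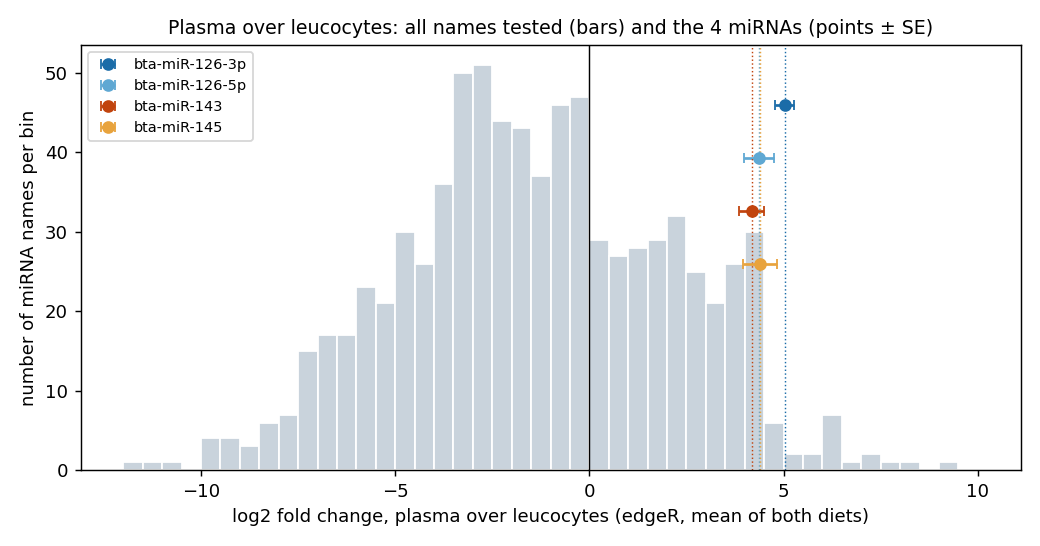
Number of miRNA names (bars, bins of 0.5) by their log2 fold change of plasma over leucocytes in edgeR, with the 4 miRNAs as points with SE (their height has no meaning). The points lie at 4.18 to 5.03, in the upper tail of the 800 names, whose median is -1.51.

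Each diet taken alone gave the same direction. On FD the log2 fold changes were 5.09 for bta-miR-126-3p, 4.11 for bta-miR-126-5p, 4.07 for bta-miR-143 and 4.37 for bta-miR-145 (edgeR, largest adjusted p = 0.000448), where 14.6% of all names were called higher, 18.4% lower and 33% in either direction. On HG they were 4.98, 4.63, 4.30 and 4.40 in the same order (largest adjusted p = 0.000351), where 15.9% of all names were called higher, 18.8% lower and 34.6% in either direction. All 4 were called in both. Without cow 1 the FD differences were smaller, at 2.80 for bta-miR-143, 3.07 for bta-miR-145, 3.25 for bta-miR-126-5p and 4.39 for bta-miR-126-3p, and all 4 were still called.

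The reads themselves overlapped between the sample types. bta-miR-126-3p had 1154 to 17284 reads per plasma library and 1953 to 3814 per leucocyte library, and bta-miR-143 had 17926 to 108644 and 26930 to 68636. The difference in level was therefore one of a similar number of reads in libraries of very unequal depth. Among leucocyte libraries the same was seen on a smaller scale: depth differed 3.04-fold from the lowest to the highest library, and the reads of bta-miR-126-3p 1.95-fold. The leucocyte libraries of cow 4, at 21764578 miRNA reads for FD and 27548676 for HG, were the shallowest of their groups and had the highest CPM of all 4 miRNAs. Over the 6 leucocyte libraries Pearson's r between log2 CPM and log2 depth was -0.92 for bta-miR-126-3p, -0.85 for bta-miR-126-5p, -0.81 for bta-miR-143 and -0.89 for bta-miR-145, while the median over the 411 names with at least 100 counts on average was -0.51. Over the 8 plasma libraries r was 0.13 for bta-miR-126-3p, -0.43 for bta-miR-126-5p, -0.77 for bta-miR-143 and -0.73 for bta-miR-145, with a median of 0.07 over 247 names. These r values describe libraries in which depth and cow go together and in which CPM is computed from depth, and the part of depth in the difference between plasma and leucocytes was not tested.

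**Figure D3:**
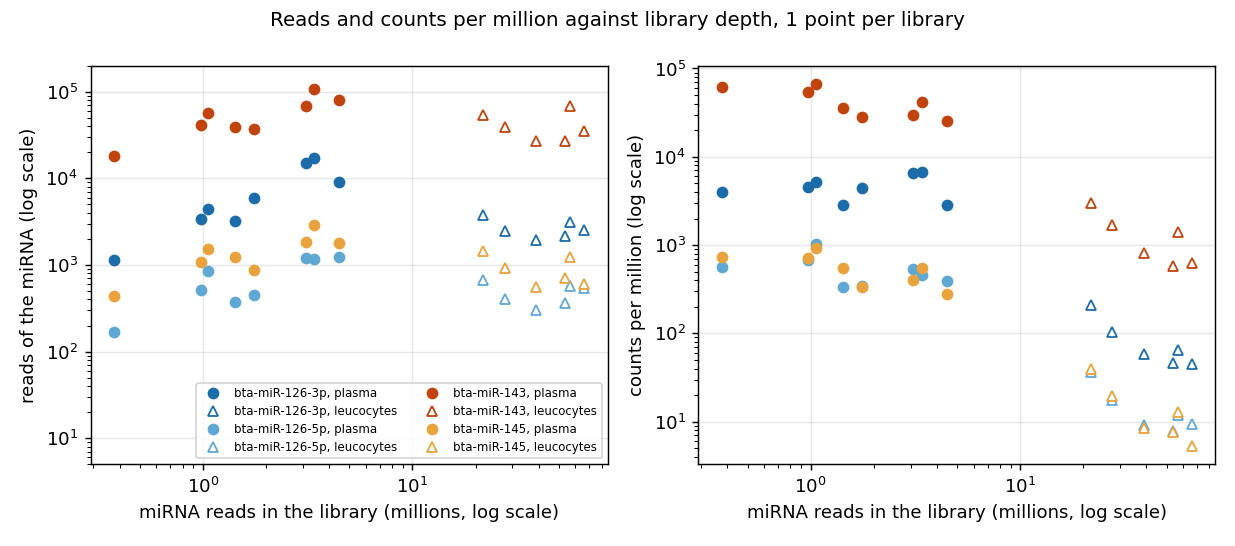
Reads of each of the 4 miRNAs (left) and their CPM (right) against the miRNA reads of the library, all on log axes, with filled circles for the 8 plasma and open triangles for the 6 leucocyte libraries. The reads of bta-miR-126-3p lie at 1154 to 17284 in plasma and at 1953 to 3814 in leucocytes although the depths do not overlap, and the highest CPM of the leucocytes are in the shallowest leucocyte library.

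Other miRNAs linked to the vessel wall and to blood cells were set beside them, and their counts are to be read against the 19.4% of all names called higher in plasma, 27% lower and 46.4% in either direction. Of 8 further miRNAs known from endothelial cells, 4 were higher in plasma and 0 lower, led by bta-miR-10b with a log2 fold change of 6.26 (SE 0.434, edgeR adjusted p = 2.87e-06), followed by bta-miR-217 with 4.48, bta-miR-10a with 2.72 and bta-miR-31 with 1.93. The angiogenesis-related bta-miR-221 and bta-miR-222 gave -0.48 and -0.29 and were not called. Their mean CPM was higher in plasma (3199 against 2558 and 1866 against 1276), so their sign depends on the scale. Of 8 mesenchymal miRNAs, known from fibroblasts and smooth muscle, 5 were higher, namely bta-miR-214 with 6.004, bta-miR-199a-5p with 4.45, bta-miR-100 with 4.44, bta-miR-125b with 2.38 and bta-miR-152 with 2.02, while bta-miR-199a-3p (-1.56) and bta-miR-199b (-2.81) were lower. The medians of these lists were 1.59 and 2.202, lower than the 4.38 of the 4 miRNAs and above the -1.51 of all names. Of 7 striated muscle miRNAs 3 were higher and 0 lower: bta-miR-1, bta-miR-133a and bta-miR-206.

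The lists of blood cells were read against the same shares of all names (19.4% higher, 27% lower). CPM is scaled to library size, whereas the log2 fold changes use the scale that edgeR estimates (TMM), on which plasma stands lower. The median of all names was -1.51 on that scale and -0.63 with library size. The sign of a small difference can therefore depend on the scale. Of 6 miRNAs abundant in platelets, bta-miR-24-3p (2.54) and bta-miR-22-3p (1.55) were higher in plasma and bta-miR-185 (-2.29) was lower, which is 3 of 6 in either direction beside 46.4% of all names. Their sum was 109606 to 189568 CPM in plasma and 52778 to 74079 CPM in leucocytes, which did not overlap, while the median log2 fold change of the list was -0.15. In plasma the most abundant of them was bta-miR-21-5p, with a mean of 62449 CPM against 37219 CPM in leucocytes, which was not called (-0.15). Next came bta-miR-24-3p, with 38532 against 4342 CPM. The list shares bta-miR-223 with the leucocyte list. All 6 of the list were found in every library, and the part of platelets in the levels of miR-126 was not tested. Of the 6 erythrocyte miRNAs 6 were lower in plasma by edgeR, led by bta-miR-451 with -3.19 (SE 0.282, edgeR adjusted p = 6.57e-06). By mean CPM bta-miR-92a was higher in plasma (10477 against 8957), and the others of that list were lower. Of the 8 leucocyte miRNAs 5 were lower, led by bta-miR-150 with -1.76, and 0 were higher. By CPM, the sum of the erythrocyte list was lower in plasma (57603 to 148421 against 242690 to 411385), while that of the leucocyte list overlapped. A lower share of abundant miRNAs raises the share of all others in a library. The part of the erythrocyte miRNAs in the levels of the 4 miRNAs was not tested.

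Within a library, the ratio of 2 miRNAs does not depend on scaling to the library. The ratio of bta-miR-126-3p to bta-miR-126-5p reads was 6.91, 8.58, 12.8 and 12.3 in plasma of cows 1 to 4 on FD and 7.29, 6.61, 5.08 and 14.6 on HG. In leucocytes of cows 1, 3 and 4 it was 4.75, 5.504 and 5.68 on FD, and it ranged from 5.83 to 6.40 on HG. Taking the mean of both diets in each cow, the log2 ratio was 0.69 ± 0.44 (SD, n = 3 cows) higher in plasma than in leucocytes, in 3 of 3 cows, with p = 0.25 when signs were permuted over the cows (exact, two-sided), the smallest p that 3 cows allow. The plasma range of 5.08 to 14.6 overlapped the leucocyte range of 4.75 to 6.40 in cow 3 on HG.

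The ratio of bta-miR-143 to bta-miR-145 reads was narrower in plasma. It was 31.6 to 44.7 over the 8 plasma libraries (median 38.1) and 37.5 to 58.6 over the 6 leucocyte libraries (median 45.3), so the proportion of the pair moved by less than 2-fold over all 14 libraries while the fitted levels differed 18.2-fold and 20.9-fold between sample types. The log2 ratio was lower in plasma in 3 of 3 cows, by -0.21 ± 0.16 (SD, n = 3 cows; p = 0.25, the same exact permutation test). Ignoring cow, an exact permutation of the 14 libraries gave p = 0.0120 for the miR-126 arms and p = 0.0493 for the miR-143 to miR-145 ratio, but it counts each cow's libraries as independent. The arms of miR-145 were more variable, with a ratio of bta-miR-145 to hsa-miR-145-3p reads of 1.07 to 3.87 in plasma and 2.43 to 3.44 in leucocytes.

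**Figure D4:**
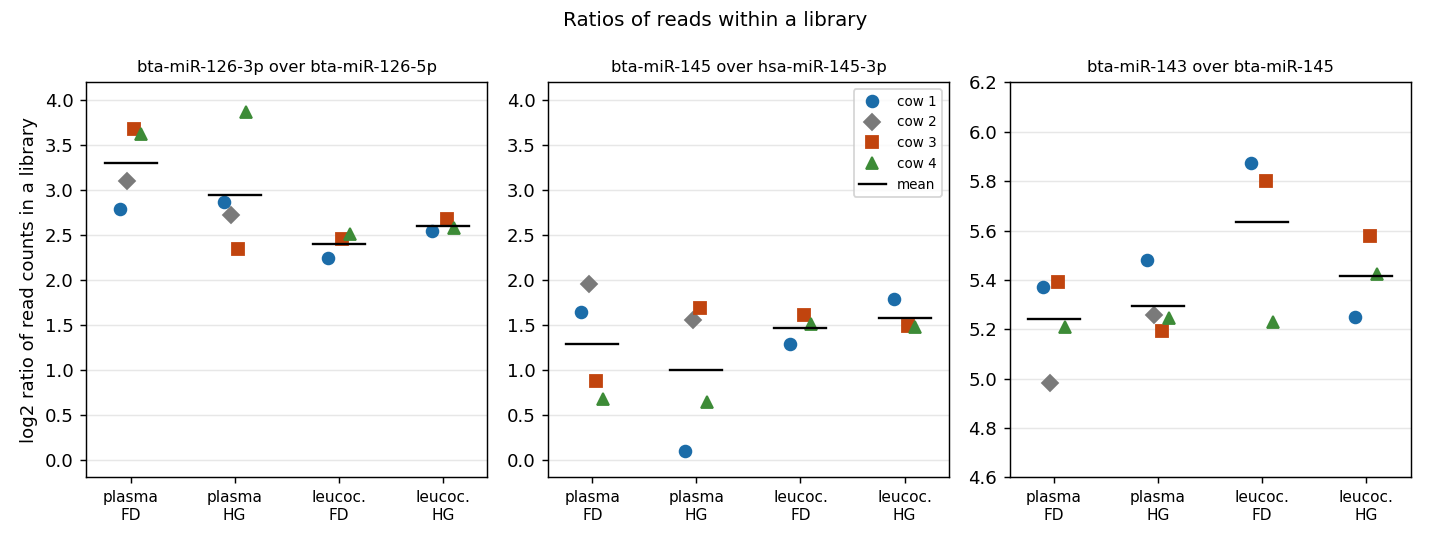
Log2 ratios of reads within each library for the arms of miR-126, the arms of miR-145 and the miR-143 to miR-145 pair (the last panel has its own axis range), with 1 symbol per cow and a bar at the group mean. The miR-126 arm ratio spreads from 5.08 to 14.6 (on the linear scale) in plasma and from 4.75 to 6.40 in leucocytes.

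Diet was compared within each sample type, with edgeR on cow plus diet. In plasma, 0 of the 4 miRNAs were called, as were 0% of the 538 names tested, of which 55 had an unadjusted p under 0.05 and 12 were called by DESeq2, none of the 4 among them. The log2 fold changes of HG over FD were -0.29 (SE 0.405) for bta-miR-126-3p, 0.06 (SE 0.537) for bta-miR-126-5p, -0.13 (SE 0.384) for bta-miR-143 and -0.19 (SE 0.526) for bta-miR-145 (edgeR, adjusted p = 0.950 to 0.984). Their direction is not settled, since it turned for bta-miR-126-3p, bta-miR-143 and bta-miR-145 with library size alone as the scale. The median of all 538 names was 0.25 with the main scale and 0.67 with library size.

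By cow number, the plasma values went different ways, with libraries matched to cows by the order of their numbers. That match was not tested. Over 247 names, deviations from the group mean in the FD library of cow 1 correlated at -0.41 with the HG library of cow 1. With the HG library of cow 3 they correlated at 0.70. The folds per cow hold only if the match is right. bta-miR-143 was 0.41-fold on HG in cow 1 and 1.55-, 2.38- and 1.40-fold in cows 2, 3 and 4, and bta-miR-145 was 0.38-fold in cow 1 and 1.28-, 2.73- and 1.37-fold in the others. Both were thus lower on HG in cow 1 and higher in the other 3 cows, and the FD library of cow 1 was the shallowest of all libraries (376589) and its HG library the deepest of the plasma libraries (4464702). bta-miR-126-5p was 0.68-, 2.06-, 2.95- and 0.86-fold in cows 1 to 4, higher in 2 of 4. bta-miR-126-3p was the steadiest, with 0.72-, 1.58-, 1.17- and 1.02-fold. The mean log2 difference of CPM per cow was 0.11 ± 0.47 (SD, n = 4) for bta-miR-126-3p and 0.27 ± 1.09 (SD, n = 4) for bta-miR-143, with p = 0.625 and p = 0.75 when signs were permuted over the cows (exact, two-sided), whose smallest p with 4 cows is 0.125. The other arm hsa-miR-145-3p was higher on HG in 4 of 4 cows (mean log2 difference of CPM 0.51 ± 0.26, SD, n = 4; exact permutation p = 0.125), with an edgeR log2 fold change of 0.10 (adjusted p = 0.960). All CPM folds here are scaled to library size, with which the median edgeR log2 fold change of all 538 names was 0.67. How many of all names rose in 4 of 4 cows was not counted.

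In leucocytes, fewer cells of a type and less miRNA per cell cannot be told apart. There the 4 estimates were all lower on HG, as were those of 403 of the 782 names tested. The 4 miRNAs varied together over these libraries (r of 0.94 to 0.99), so their estimates are not separate results. Of the 4, 0 passed the adjusted threshold, beside 1.92% of the 782 names in either direction and 1.53% called lower. bta-miR-143 gave -0.57 (SE 0.155, adjusted p = 0.105), bta-miR-126-5p -0.56 (SE 0.209, adjusted p = 0.216), bta-miR-126-3p -0.36 (SE 0.194, adjusted p = 0.426) and bta-miR-145 -0.36 (SE 0.271, adjusted p = 0.589), with a median of -0.01 over all names. bta-miR-143 was lower in 3 of 3 cows, at 0.94-, 0.56- and 0.57-fold in cows 1, 3 and 4, and so was bta-miR-126-5p, at 0.83-, 0.77- and 0.48-fold. bta-miR-126-3p and bta-miR-145 were lower in 2 of 3 cows, and without cow 4 their estimates were -0.07 and -0.048, and that of bta-miR-126-5p was -0.33. bta-miR-143 was the nearest to a call: it had an unadjusted p of 0.00350 in edgeR, and it passed with DESeq2 (-0.57, adjusted p = 0.0233) and without cow 4 (-0.46, adjusted p = 0.0106), a setting in which 102 of 750 names were called in place of 15 of 782. The study itself fitted cow plus diet with DESeq2. Alone of the 4, bta-miR-143 is among the leucocyte miRNAs it lists as differentially expressed, as lower on HG.

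The other lists were set beside this, without a test of a difference between lists. Of the 8 endothelial-linked and 8 mesenchymal miRNAs 0 were called, as in the 4 miRNAs, and the medians were -0.16 and -0.19, beside -0.46 for the 4 miRNAs. The striated muscle list was like the 4 miRNAs in its estimates, with 4 of 4 tested names lower, a median of -0.47 and 0 called. Of the 8 leucocyte miRNAs 2 were called lower on HG, bta-miR-142-3p (-0.61, edgeR adjusted p = 0.0313) and bta-miR-146a (-0.84, adjusted p = 0.00895), beside 1.53% of all names. The median of that list was -0.15, with 6 estimates lower and 2 higher. Of the 6 erythrocyte miRNAs 1 was called lower, bta-miR-144 (-0.86, edgeR adjusted p = 0.0313). The median of the erythrocyte list was 0.22, with 4 estimates higher and 2 lower. In plasma 0 were called in every list.

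**Figure D5:**
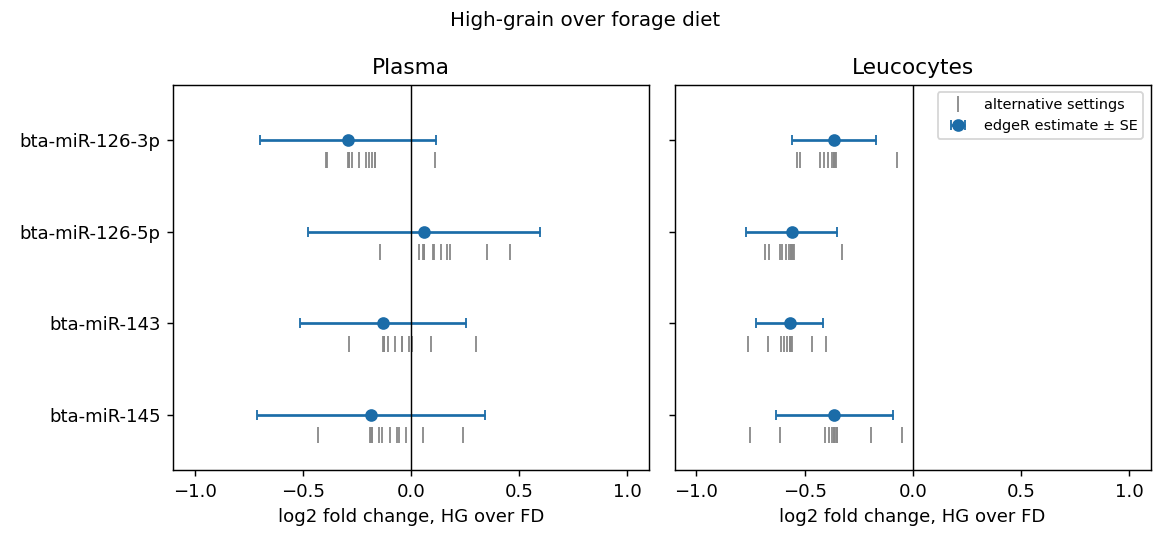
Log2 fold changes of HG over FD in edgeR (points with SE) for the 4 miRNAs in plasma (4 cows) and leucocytes (3 cows), with grey ticks for the alternative settings. In plasma the ticks of all 4 miRNAs lie on both sides of 0, and in leucocytes all estimates lie below 0, at -0.57 to -0.36.

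The diet effects of the sample types were compared in the fit of all 14 libraries. The difference, plasma minus leucocytes, was -0.12 (SE 0.389) for bta-miR-126-3p, 0.51 (SE 0.620) for bta-miR-126-5p, 0.22 (SE 0.530) for bta-miR-143 and 0.03 (SE 0.730) for bta-miR-145, each with an adjusted p = 1 in edgeR. Of the 800 names 0 were called, 59 had an unadjusted p under 0.05, and DESeq2 called 28, none of the 4 among them. The ratio of the miR-126 arms was higher on HG in 3 of 3 cows in leucocytes (log2 difference 0.20 ± 0.11, SD, n = 3; exact sign-flip permutation p = 0.25) and in 2 of 4 cows in plasma (-0.35 ± 0.71, SD, n = 4; exact permutation p = 0.5), where it was -0.018 without cow 3. The ratio of bta-miR-143 to bta-miR-145 differed between diets by 0.05 ± 0.20 (SD, n = 4) in plasma and by -0.22 ± 0.41 (SD, n = 3) in leucocytes, with exact permutation p = 0.625 and p = 0.5, and the leucocyte difference was -0.013 without cow 1.

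How far the 4 miRNAs varied together differed between the sample types. Over the 8 plasma libraries Pearson's r of log2(CPM + 1) was 0.97 between bta-miR-143 and bta-miR-145 of the cluster, but 0.45 between the arms of miR-126. bta-miR-126-5p was closer to bta-miR-143 (r = 0.80) than to its own 3p arm. Over the 6 leucocyte libraries all pairs lay between 0.94 and 0.99. In leucocytes 80.2% to 85.9% of the variance of log2 CPM was between cows. In plasma 77.2% of the variance of bta-miR-126-3p was between cows, and 6.03% to 11.3% for the other miRNAs. The split was not made for all names, and so few libraries grouped by cow take up a part of the variance by chance alone. In plasma the grouping also rests on the numbering of the libraries. The values of this paragraph describe libraries that share cows and, in leucocytes, a gradient of depth.

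The miRNAs with the most similar pattern over the 8 plasma libraries, among 173 bovine names with at least 100 counts on average, were bta-miR-378 (r = 0.96), bta-miR-16b and bta-miR-31 for bta-miR-143, and bta-miR-378 (r = 0.93), bta-miR-31 and bta-miR-182 for bta-miR-145. For bta-miR-126-5p they were bta-miR-199a-5p (r = 0.90), bta-miR-182 and bta-miR-16b. For bta-miR-126-3p they were bta-miR-16a (r = 0.75), bta-miR-1468 and bta-miR-32, the weakest likeness of the 4. The median r over all candidate names was between -0.04 and 0.12.

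Over the 6 leucocyte libraries, among 293 names, the nearest were bta-miR-100 (r = 0.9997, mean 13.8 CPM), bta-miR-9-5p and bta-miR-141 for bta-miR-126-3p, and bta-miR-141 (r = 0.99), bta-miR-1 and bta-miR-211 for bta-miR-126-5p. For bta-miR-143 they were bta-miR-183 (r = 0.98), bta-miR-9-3p and bta-miR-182, and for bta-miR-145 bta-miR-182 (r = 0.995), bta-miR-429 and bta-miR-200b. These names were rare in leucocytes, at 4.13 to 34.0 CPM on average, and the median r over all 293 names was between 0.46 and 0.49.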

How the data were processed

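Small RNA libraries of 8 plasma and 6 leucocyte samples were demultiplexed with bcl2fastq 2.20 and trimmed with Skewer 0.2.2, per the submitters' processing notes. The authors assigned reads of at least 15 bases to miRBase 22 with sRNAbench and Bowtie (2 mismatches, UMD3.1). For each library they deposited counts of reads and of distinct sequences, estimated counts in which reads matching several names are divided among them, and scaled reads, used here as a score only to recover each library's depth. Deposited tables of the whole series were not used here. Replicates were separate cows.

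The estimated counts deposited by the authors were rounded and tested with edgeR 4.0.16 (R 4.3.3; quasi-likelihood, robust fitting, TMM) on names with at least 10 counts in total. The model was cow plus diet within a sample type. For plasma against leucocytes it was group plus cow over 14 libraries, with contrasts over both diets and, added after seeing the data, on each diet. Benjamini-Hochberg adjustment covered all names, and an adjusted p under 0.05 was called. DESeq2 1.42.0, other scalings, filters, undivided reads, no block and leaving out each cow were alternatives. The edgeR tests were checked on simulated libraries drawn independently, without differences between cows. That check cannot show how the tests behave where libraries of a cow are alike. The leucocyte labels carry cow letters, whereas plasma libraries were matched to cows by the order of their numbers within each diet. The plasma labels carry no letters, so the match of leucocyte cows to plasma cows is an inference that was not tested. Every comparison by cow across the sample types rests on that match. Residuals of the same cow correlated at 0.48 to 0.74 in leucocytes and at -0.41 to 0.38 in plasma. Residuals of different cows correlated at -0.72 to 0.38 in leucocytes and at -0.65 to 0.70 in plasma. Plasma libraries of the same cow number were thus no more alike than others, and the plasma pairing rests on the numbering alone. Names described include the 4 miRNAs, human names and other arms of their hairpins, marker lists, and for each miRNA the 3 bovine names of highest r. The miRNAs and lists were chosen with earlier results of these data known. Reads carried no molecular identifiers, so they are not counts of independent molecules. The miR-126 ratio is written as 3p over 5p, the inverse of the planned form.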

Additional observations from a re-analysis of the deposited data

How the results depend on the processing

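Plasma against leucocytes kept its direction and call for all 4 miRNAs under every alternative run, with log2 fold changes of 3.29 (bta-miR-143, without cow 1) to 5.15 over both diets, 2.80 to 5.31 on FD and 3.77 to 5.003 on HG when 1 cow was left out and, without the replicate block for cow, of 4.89 for bta-miR-126-3p. In plasma, HG against FD turned with library size alone for bta-miR-126-3p (0.11), bta-miR-143 (0.30) and bta-miR-145 (0.24), with names of identical counts taken once for bta-miR-143 (0.0019), and when 1 cow was left out, where bta-miR-126-5p ranged from -0.15 (without cow 3) to 0.35, bta-miR-143 from -0.29 to 0.0904 and bta-miR-145 from -0.43 to 0.0535 (both highest without cow 1). In leucocytes bta-miR-143 passed with DESeq2 (-0.57) and without cow 4, within a range of -0.76 to -0.40, while bta-miR-126-3p ranged from -0.52 to -0.07, bta-miR-126-5p from -0.67 to -0.33 and bta-miR-145 from -0.75 to -0.048 (each nearest 0 without cow 4). Leaving out cow 3 or using no block left 0 of all names called there (24 and 45 at an unadjusted p under 0.05). The difference of the diet effects turned for bta-miR-126-3p with DESeq2 (0.0538), its size factors (0.0535) and library size (0.53), and with 1 cow left out it ranged from -0.30 to 0.25 for bta-miR-126-3p, -0.19 to 0.96 for bta-miR-143 and -0.44 to 0.95 for bta-miR-145. Ignoring the pairing of libraries by cow (no replicate block), the log2 ratio of plasma over leucocytes was 0.62 for the miR-126 arms and -0.26 for miR-143 to miR-145, both with an exact permutation p under 0.05. Between diets the miR-126 arm ratio in plasma ranged from -0.55 to -0.018, and the miR-143 to miR-145 ratio in leucocytes from -0.42 to -0.013 and in plasma from -0.0193 (without cow 2) to 0.14 with 1 cow left out. Of all 330 alternative values 310 kept their direction and call, and the cause of the others was not tested. That total counts plasma against leucocytes over both diets and again on each diet, where none turned, and it includes the ratios. For HG against FD in plasma 7 values turned and 45 kept both. For the difference of the diet effects 8 turned and 40 kept both. Cow 2 has no leucocyte library, so leaving it out there was not run. With 3 and 4 cows, p-values of the ratios could not pass 0.05.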

Other observations

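In none of the 18 groups of 4 libraries examined (levels and ratios of the miRNAs in plasma) did the highest or lowest library stand apart by Dixon's criterion.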
